A study of Mus musculus with 24 samples.

Results

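H3K27ac ChIP-Seq peaks of female quadriceps myofibers were examined that were present 4 days after the last of 5 weekly prednisone injections and had no counterpart in vehicle-treated females or 6 or 8 days after the last injection. They are called day 4–only PREs here, after the study's term prednisone-responsive enhancer (PRE) for a day 4 peak absent from vehicle. They were chosen by their presence or absence in the peak lists: an autosomal peak of the female day 4 list was a member if it shared no base with a peak of the female vehicle, day 6 or day 8 list. This rule held for 23548 of the 66251 autosomal female day 4 peaks, so that 35.5% of all these peaks were members, and for 43.4% of the 54197 autosomal PREs. The count follows from the rule and is a description. The mice were C57BL/6 by the labels (C57BL/6J by the study's methods), 10 weeks old at the first injection, and received prednisone intraperitoneally at 1 mg/kg 5 times or vehicle (DMSO in PBS). By the study's general methods, weekly treatment had vehicle on the other days of the week. The study's scheme of this cohort also marks times without injection, so vehicle after the last prednisone injection is not certain. Both sexes were harvested as a vehicle group and 4, 6 and 8 days after the last prednisone injection, with 2 H3K27ac libraries and 1 input library per group. Myofibers were separated from the left quadriceps with collagenase II and filtration, so other cells attached to the fibers may have been carried along. The promoters of all 5 myofiber markers (Acta1, Ckm, Myh4, Ttn and Mylpf) lay in peaks of each of the 4 female lists.

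Prednisone is a glucocorticoid that acts through the glucocorticoid receptor (GR), a transcription factor that enters the nucleus on binding its ligand, occupies glucocorticoid response elements and recruits coactivators. Acetylation of lysine 27 of histone H3 is placed by coactivator acetyltransferases and marks active enhancers and promoters. Enhancers of skeletal muscle are commonly bound by MEF2 factors and by E-box factors of the MyoD family.

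Sequences of 5 members are shown, chosen as those with the highest score at a promoter, with a match to the GR core ACANNNTGT or with a match to the MEF2 consensus. They are stretches of the reference genome mm10 (RefSeq, GRCm38), given 5′ to 3′. In the first 2, both at annotated starts, capitals mark CG dinucleotides. In the other 3, capitals mark the GR core or the MEF2 match.
Ceacam11 promoter, chr7:17972087-17972336, + strand: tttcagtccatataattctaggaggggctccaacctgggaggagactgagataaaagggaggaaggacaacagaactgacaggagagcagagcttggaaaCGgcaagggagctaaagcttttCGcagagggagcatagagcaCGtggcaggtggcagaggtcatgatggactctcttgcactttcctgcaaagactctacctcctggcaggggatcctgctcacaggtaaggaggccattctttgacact
Mir6386 promoter, in the Plscr1 gene, chr9:92267346-92267595, + strand: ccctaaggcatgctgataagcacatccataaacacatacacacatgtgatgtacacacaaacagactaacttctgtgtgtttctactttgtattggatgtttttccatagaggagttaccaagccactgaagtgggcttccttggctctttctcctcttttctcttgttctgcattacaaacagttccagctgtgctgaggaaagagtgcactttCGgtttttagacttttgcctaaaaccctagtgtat
76.3 kb upstream of Arid5b, GR core then MEF2, chr10:68354700-68354900, + strand: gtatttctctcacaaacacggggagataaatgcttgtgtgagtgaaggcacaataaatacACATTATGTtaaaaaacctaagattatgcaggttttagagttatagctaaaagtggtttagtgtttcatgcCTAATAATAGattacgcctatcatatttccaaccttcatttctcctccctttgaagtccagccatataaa
16.8 kb upstream of Siglecf, GR core, chr7:43334663-43334792, + strand: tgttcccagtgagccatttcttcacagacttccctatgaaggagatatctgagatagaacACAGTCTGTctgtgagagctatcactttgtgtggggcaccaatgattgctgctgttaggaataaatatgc
5.96 kb upstream of Map3k5, MEF2, chr10:19928318-19928407, + strand: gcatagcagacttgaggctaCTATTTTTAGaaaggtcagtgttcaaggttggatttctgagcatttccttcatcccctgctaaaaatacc
The Ceacam11 and Mir6386 stretches hold 3 and 1 CG dinucleotides in 250 bases. The median observed over expected CpG was 0.174 in all members and 0.252 in PREs found again at both later days.

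Day 4–only PREs were narrow and weak, as were PREs found again at day 6 alone. HOMER gives each peak a normalized tag count, the H3K27ac tags in the peak per 10 M tags (megatags) of the library. The members had a median of 5.72 (5th to 95th percentile 4.70 to 8.58), which corresponds to 28 tags as counted at a depth of 49.0 M tags. PREs found again at both day 6 and day 8 (kept PREs, 20561 peaks) had a median of 10, and day 4 peaks also found in vehicle (vehicle-shared peaks, 12054) had a median of 33.9. Of the members, 82.2% had the smallest width that the peak caller wrote, 500 bp, against 29.1% of kept PREs and 8.05% of vehicle-shared peaks. The findPeaks score, a tag number not scaled for depth, had its lowest value of 24 in 26.0% of members and reached 33 or more in 3.90%. Kept PREs reached 33 or more in 29.6% of cases. The fold over input did not separate the sets in this way, with a median of 4.89 in members, 4.63 in kept PREs and 5.29 in vehicle-shared peaks. These values come from the list that chose the members and are given as a description. The remaining PREs were found at day 6 but not day 8 (6873) or at day 8 but not day 6 (3215). Those of day 6 alone were much like the members, with a median normalized tag count of 5.92, the same median score of 26 and 68.5% of peaks at 500 bp. Those of day 8 alone had a median of 6.53 and 58.7% of peaks at 500 bp.

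**Figure D1:**
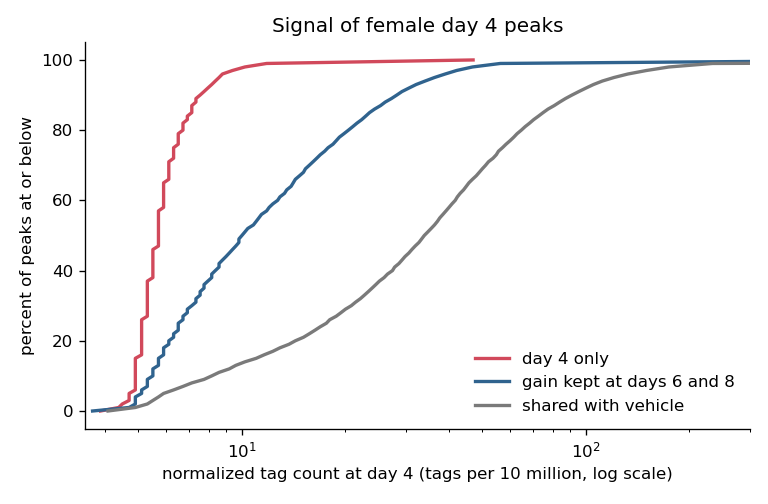
Cumulative percent of female day 4 peaks (y axis) at or below a normalized tag count (x axis, tags per 10 M, log scale), for day 4–only PREs, kept PREs and vehicle-shared peaks. The curve of the members rises steeply around its median of 5.72, to the left of the kept (median 10) and vehicle-shared (33.9) curves.

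Absence from a later list depends on what that list could hold. The day 4 list had the greatest depth of the 4 female lists, 49.0 M tags, as worked out from the tag counts, while the vehicle list had 27.5 M, the day 6 list 30.6 M and the day 8 list 39.7 M. Its 500 bp peaks had the lowest signal, with a median of 5.51 against 8.72 in the vehicle list, 7.84 at day 6 and 6.80 at day 8. Of the 19356 members of 500 bp, 68.9% lay under the 5th percentile of the 500 bp peaks of the vehicle list, 55.9% under that of day 6 and 19.2% under that of day 8. Kept PREs of 500 bp were under the same limits in 52.9%, 41.3% and 14.5% of cases. By definition, kept PREs were in the day 6 and day 8 lists and not in the vehicle list. All these shares set tag counts of day 4 against the limits of the other lists. At the depth of day 6 the median member would have 17.5 tags, and the lowest score in that list was 11. How far depth and the calling limit account for the absence of members was not tested. Within these lists, an absent peak cannot be told apart from one below the limit of the list.

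Of the other female lists, the day 6 list came nearest to the members. The median gap to the nearest peak was 5.31 kb at day 6, 9.08 kb at day 8 and 21.1 kb in vehicle. A day 6 peak lay within 1 kb of 18.8% of members, a day 8 peak within 1 kb of 11.9% and a vehicle peak within 1 kb of 3.36%. At the limit of the rule, 101 members had a gap of under 10 bp to a peak of 1 of the 3 lists, with a median normalized tag count of 5.72. Just outside it, 97 day 4 peaks overlapped those lists by 10 bp or less and had a median of 5.92. Members were also more dispersed than kept PREs: 23.0% had another member within 10 kb between centers, while 54.3% of kept PREs had another kept PRE within that distance. Their density on the chromosomes ranged from 8.35 to 11.7 per Mb, against 4.80 to 15.4 per Mb for kept PREs.

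Members lay in introns and between genes and almost never at promoters. By the peak center, 51.0% were intronic (95% Wilson interval 50.4% to 51.6%), 43.1% intergenic (42.5% to 43.7%), 3.84% exonic and 1.32% at transcript ends. Promoters (1 kb upstream to 100 bp downstream of a start in curated RefSeq transcripts) held 180 members, or 0.764% (0.661% to 0.884%), against 8.4% of all autosomal day 4 peaks. When the female lists were cut to equal length by score, the share was 1.95% (1.73% to 2.19%). In the lists as deposited, PREs of day 6 alone and of day 8 alone were also seldom at promoters, in 2.24% and 1.24% of cases. Kept PREs were at promoters in 11.6% and vehicle-shared peaks in 23.3% of cases. The difference between kept and day 4–only PREs was 10.8 percentage points (Newcombe interval 10.4 to 11.3), and it held in each of 4 classes of findPeaks score, with 7.004 points (5.89 to 8.25) at a score of 24 and 14.1 points (13.3 to 14.8) at 30 or more. Windows of 500 bp laid every 20 kb on the autosomes and outside the female peaks were at promoters in 0.627% of cases, 0.137 points below the members (interval of the difference 0.0222 to 0.265). These intervals cover counting error only. The deposited lists hold 1 list per group and no values of single libraries, so they allow no test between groups.

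The promoters that the members did hold were of a different kind from those of kept PREs. Only 9 of the 180 were CpG-rich (GC content of at least 50% and observed over expected CpG of at least 0.6), or 5.00% (2.65% to 9.23%). Among 2382 kept promoter PREs the share was 63.5%, and among 2807 vehicle-shared promoter peaks it was 69.9%. Promoter windows outside female peaks gave 5.50% (4.00% to 7.52%), an interval that overlaps that of the members. The highest score at a promoter, 37 with a normalized tag count of 8.37, was at Ceacam11, a carcinoembryonic antigen family gene (chr7:17971961-17972461). Mir6386, a microRNA gene within Plscr1, followed with a score of 34 and 7.56 tags per 10 M.

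**Figure D2:**
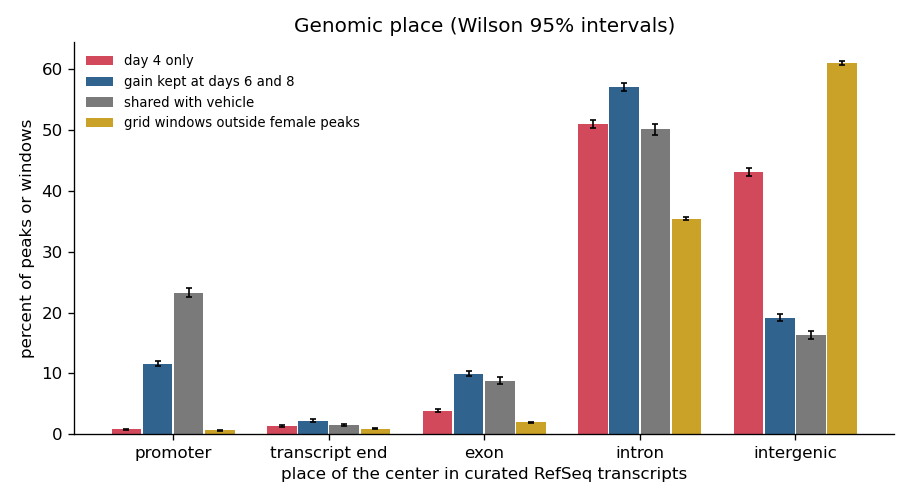
Percent of peaks or windows (y axis) by genomic place of the center (x axis) for day 4–only PREs, kept PREs, vehicle-shared peaks and grid windows outside female peaks, with Wilson 95% intervals as black bars. The promoter bar of the members (0.764%) is near that of the grid windows (0.627%) in the lists as deposited, and their intron bar (51.0%) is above that of the grid windows (35.5%).

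Members were nonetheless closer to genes than the grid windows. The median distance to the nearest protein-coding start was 40.5 kb for members, 12.5 kb for kept PREs and 4.96 kb for vehicle-shared peaks. It was 21.6 kb for PREs of day 6 alone, 26.5 kb for those of day 8 alone and 81.9 kb for grid windows outside female peaks. In introns, members exceeded these windows by 15.5 points (14.8 to 16.2). The nearest gene had its promoter in a vehicle peak for 26.4% of members (25.9% to 27.02%), for 32.1% of kept PREs and for 19.4% of the windows outside female peaks. The day 4 list held the promoter of the nearest gene for 58.8% of members and 82.1% of kept PREs.

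**Figure D3:**
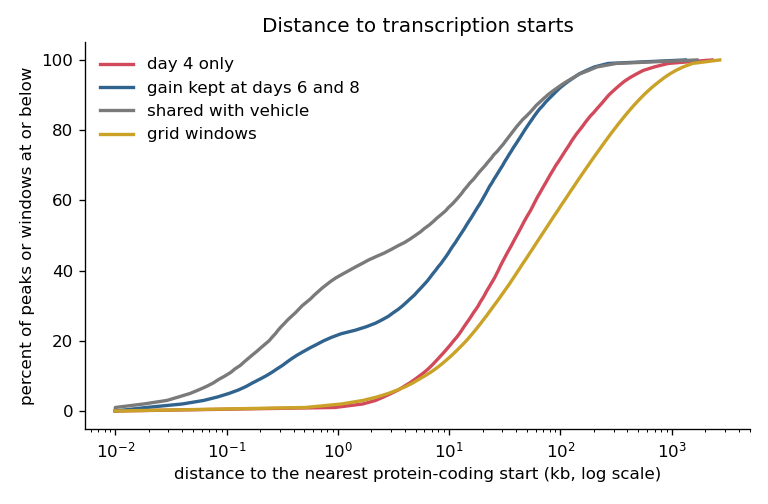
Cumulative percent of peaks or windows (y axis) by distance to the nearest protein-coding start (x axis, kb, log scale). The curve of day 4–only PREs (median 40.5 kb) runs near that of all grid windows (median 67.2 kb) up to a few kb and then to its left, while kept PREs (12.5 kb) and vehicle-shared peaks (4.96 kb) start much nearer.

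Few members had a counterpart in males. The male lists were not used by the rule, so they are a separate readout of the same sites. Of the members, 1982 overlapped a peak of at least 1 of the 4 male lists, or 8.42% (8.07% to 8.78%), against 42.1% of all autosomal female day 4 peaks. With female lists of equal length the share was 18.9% (18.3% to 19.6%). In the lists as deposited it was 21.9% in PREs of day 6 alone, 27.7% in PREs of day 8 alone, 63.1% in kept PREs and 87.7% in vehicle-shared peaks. Grid windows outside the female peaks overlapped a male peak in 3.09% of cases (2.99% to 3.20%), 5.33 points below the members (4.96 to 5.70). By list, members overlapped the male vehicle peaks in 5.60% of cases, male day 6 in 2.06%, male day 8 in 0.531% and male day 4 in 0.442%. The male vehicle list is also the longest, with 87600 peaks, and the male day 4 list the shortest and shallowest, with 17482 peaks at 7.52 M tags. At the day that defined the members, 104 were in the male day 4 list, while 13.2% of all female day 4 peaks were. Of the 104, 95 were not in the male vehicle list, a share that was not computed over all female day 4 peaks. Male vehicle peaks overlapped 5.60% of members but 34.9% of all autosomal female day 4 peaks. The single member found in 3 male lists lay in an exon of Plk2, a polo-like kinase gene, with a normalized tag count of 5.72 and a day 8 peak only 0.100 kb away.

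The difference in male overlap was present at every score. Kept minus day 4–only PREs was 54.6 points (53.9 to 55.4) over all, 43.1 points (40.8 to 45.3) at a score of 24 and 62.2 points (60.8 to 63.6) at 30 or more. Among peaks of 500 bp the shares were 7.76% in members and 40.1% in kept PREs, a smaller difference of 32.3 points (31.0 to 33.6). With score rising from 24 to 30 or more, the share of members with a male counterpart went from 7.82% (7.17% to 8.52%) to 10.02% (9.001% to 11.1%), below every score class of kept PREs.

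**Figure D4:**
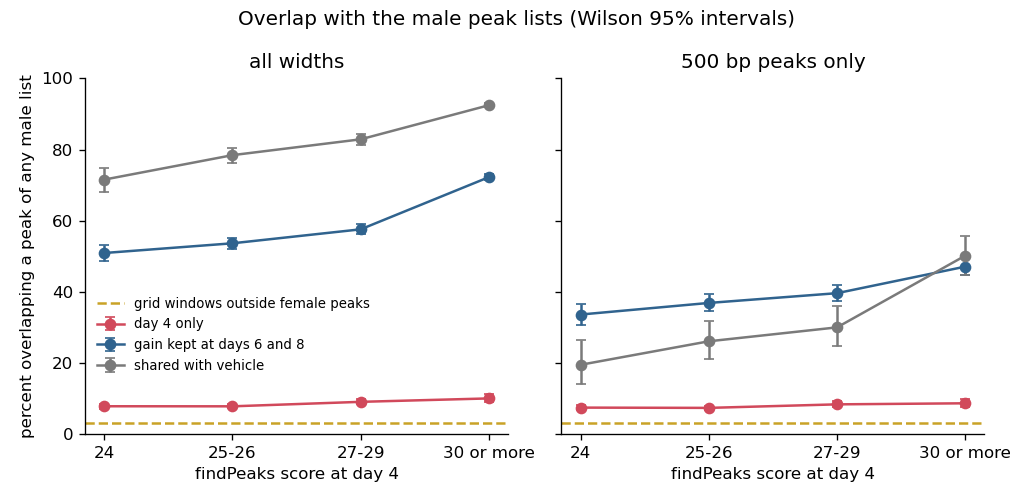
Percent of female day 4 peaks overlapping a peak of any male list (y axis) by class of findPeaks score (x axis), for all widths (left) and peaks of 500 bp (right), with Wilson 95% intervals. Day 4–only PREs stay between 7.36% and 10.02%, above the dashed line of grid windows outside female peaks (3.09%) and below kept PREs in each class.

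In GC content and repeats, the members lay between kept PREs and windows outside female peaks. Their central 500 bp had a median GC content of 45.4%, against 51.6% in kept PREs and 41.0% in windows outside female peaks. The median was 45.4% in PREs of day 8 alone too, and 50.0% in those of day 6 alone. CpG-rich sequence made up 0.229% of members, 0.302% of windows outside female peaks, 0.498% of PREs of day 8 alone and 16.2% of kept PREs. Soft-masked repeats covered a median of 14.2% of a member, 8.20% of a kept PRE and 25.4% of a window outside female peaks, and 9.83% of members were masked over 50% or more of these bases.

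Motif matches were counted in the central 500 bp on both strands with repeats masked. The GR core was present in 13.7% of members (13.2% to 14.1%), 11.7% of kept PREs and 11.9% of windows outside female peaks, with 12.5% over all autosomal day 4 peaks. It was present in 13.2% of PREs of day 6 alone and in 14.2% of those of day 8 alone. Kept minus day 4–only was −1.93 points (−2.55 to −1.30). This direction turned when whole peaks were searched, to 7.31 points, where the wider kept PREs are searched over more bases. It was also not seen at a similar base composition of up to 50% GC. Under 42%, from 42% to 46% and from 46% to 50% GC, kept PREs were 1.48, 0.523 and 0.692 points higher, each with an interval that held 0, and at 50% GC or more the difference was −1.91 points (−3.12 to −0.769). Per kb of unmasked sequence, matches numbered 0.375 in members, 0.293 in kept PREs and 0.401 in windows outside female peaks. The Arid5b and Siglecf stretches printed above each hold 1 match. The complete palindromic glucocorticoid response element was found in 2 members and the estrogen response element in 15, or 0.00849% and 0.0637%. These shares were 0.0121% and 0.0664% over all autosomal day 4 peaks.

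MEF2 matches were rarer in the members than in kept PREs. They were found in 158 members, 0.671% (0.574% to 0.784%), in 1.15% of kept PREs, in 1.93% of vehicle-shared peaks and in 0.825% of windows outside female peaks. Over all autosomal day 4 peaks the share was 1.08%. PREs of day 6 alone had 0.495% (0.354% to 0.690%) and those of day 8 alone 1.77% (1.37% to 2.29%), so the members were not the set with the fewest matches. At similar GC content members were not below the windows outside female peaks. The shares were 1.34% in members and 1.09% in windows under 42% GC, and 0.703% and 0.679% from 42% to 46%. From 46% to 50% GC they were 0.405% and 0.330%, and at 50% or more 0.326% and 0.129%. Kept minus day 4–only was 0.477 points (0.300 to 0.659). At similar GC content the difference was present in each range, from 1.86 points (0.750 to 3.41) under 42% GC to 0.424 points (0.145 to 0.640) at 50% or more. It was present in 3 of the 4 score classes, and at scores of 25 to 26 it was 0.210 points (−0.107 to 0.586). Among peaks of 500 bp it was 0.0183 points, with an interval from −0.198 to 0.280, and with lists of equal length 0.165 points (−0.109 to 0.475). The E-box CAGCTG, a form preferred by MyoD, was in 21.0% of members, 30.7% of kept PREs and 12.1% of windows outside female peaks. It was in 29.9% of PREs of day 6 alone and in 23.5% of those of day 8 alone. Above 42% GC, kept PREs exceeded members by 3.89 to 4.76 points in each range, and under 42% the difference was −0.241 points (−2.78 to 2.61). The AP-1 site TGANTCA was in 13.0% of members, 12.2% of kept PREs, 12.6% of all autosomal day 4 peaks and 11.0% of windows outside female peaks. Per kb of unmasked sequence, AP-1 matches numbered 0.358 in members, 0.303 in kept PREs and 0.371 in these windows, so members were not above the windows by this measure. The share of peaks with an AP-1 site was 12.8% in PREs of day 6 alone and 15.1% in those of day 8 alone.

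The members with the highest scores among those with under 50% repeat sequence were intergenic or intronic. The highest score, 165, belonged to a peak 284 kb upstream of Pex2, a peroxisome biogenesis gene (chr3:5860445-5860945). It held 204 H3K27ac tags as counted but also 50 input tags. Its fold over input, taken from H3K27ac tags scaled to the input, was only 2.10, the lowest of any member. A peak 1.16 kb upstream of Trpm8, which encodes a cold-sensing channel, had a score of 59 and a fold of 2.49. It lay 0.242 kb from a day 8 peak and 0.31 kb from a vehicle peak. The third was 76.3 kb upstream of Arid5b, a transcriptional coregulator of fat and lipid metabolism (chr10:68354694-68355374). It had a normalized tag count of 11.6, a fold of 3.67 and a score of 50, it overlapped peaks of the male day 4 and day 8 lists, and day 6 and day 8 peaks of females lay 0.497 and 0.364 kb away. The other 9 had scores of 42 to 44. They were nearest to Siglecf, Prex2, Sox4, Bod1, Wdfy2, Tnrc6b, Ssh2, Mdm1 and Exd2. Of these, the peaks in Prex2, an activator of Rac GTPases, and near Bod1 overlapped 1 male list each. The peak in an intron of Wdfy2 had the highest signal of the 9, 14.9 tags per 10 M. The peak in Ssh2, a cofilin phosphatase gene, was only 0.037 kb from a day 6 peak.

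By nearest protein-coding start, the members fell to 9378 of 20021 autosomal genes, 46.8% of them. Exactly 1 member was nearest to 4350 genes, and 10 or more to 202 genes. Genes with a member had a median of 95.6 kb of sequence nearest to their start and genes without a member had 28.0 kb, so counts per gene move with this length. Over all genes there were 0.956 members and 0.835 kept PREs per 100 kb.

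The gene with the most members was Rbfox1, a splicing regulator of muscle and nerve, with 34 members and 10 kept PREs. Its members had 4.08 to 9.39 tags per 10 M, and 21 of them were intronic. Ntm, a neuronal cell adhesion gene, had 21 members and 0 kept PREs, and Bcl11a, which encodes a transcriptional repressor known from blood cells, had 18 and 0. Tshz3, a zinc finger gene, had 19 members and 3 kept PREs. Acvr2a, an activin and myostatin receptor gene, had 18 members and 1 kept PRE. At Rora, a nuclear receptor gene of the circadian clock, kept PREs were more numerous, with 20 members and 26 kept. The same held for the transcriptional coregulator gene Zmiz1, with 20 members and 22 kept, while the chromatin remodeling gene Arid1b had 18 and 16. Arid1b, Acvr2a and Bcl11a are 3 of 8 genes tied at 18 members and were taken in alphabetical order. Per 100 kb nearest to the gene, members numbered 3.59 at Zmiz1, 2.09 at Arid1b, 1.93 at Tshz3, 1.56 at Rbfox1 and 0.940 at Acvr2a.

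**Figure D5:**
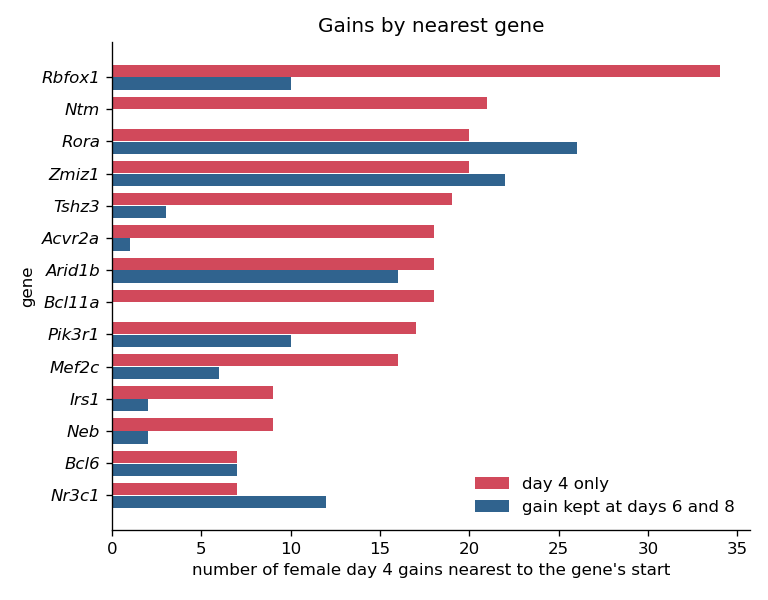
Number of female day 4 gains nearest to a gene's start (x axis), by gene (y axis). Shown are the 8 genes with the most day 4–only PREs and 6 genes picked by hand from the lists described in the text. Listed genes not shown include Hdac9, with 7 day 4–only and 0 kept PREs, and Hdac4, with 5 and 22. Red bars are day 4–only PREs and blue bars kept PREs, with 34 and 10 at Rbfox1, 21 and 0 at Ntm, 20 and 26 at Rora and 7 and 12 at Nr3c1.

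Of 34 glucocorticoid response genes, 23 had at least 1 member (67.6%, 50.8% to 80.9%), beside 46.8% of all genes. At least 1 kept PRE was nearest to 32, a share that was not computed over all genes. The genes had a median of 139 kb of nearest sequence, and the members numbered 97, or 1.54 per 100 kb, against 2.71 kept PREs per 100 kb. Nr3c1, which encodes GR itself, had 7 members, all intronic, and 12 kept PREs. Its highest-scoring member had 7.76 tags per 10 M and overlapped peaks of male day 6 and day 8. Pik3r1, the regulatory subunit of PI3K, had 17 members with 4.90 to 8.78 tags per 10 M, and 10 kept PREs. The highest-scoring of them was 150 kb upstream of the start (chr13:101918190-101918690) and 1.30 and 1.29 kb from peaks of day 6 and day 8. Bcl6, a transcriptional repressor gene, had 7 members and 7 kept PREs. The broadest of those named, 1607 bp with 16.1 tags per 10 M, was 100.9 kb upstream of Bcl6 (chr16:24088963-24090570). Sesn1, whose product restrains mTORC1, had 3 members and 5 kept PREs.

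Among lipid metabolism genes, 17 of 42 had a member (40.5%, 27.04% to 55.5%), beside 46.8% of all genes. A kept PRE was nearest to 30 of the 42, a share not computed over all genes. Cd36, the fatty acid translocase, had 5 members and 0 kept PREs beside 5 vehicle-shared peaks. Its highest-scoring member had 7.76 tags per 10 M and a fold over input of 9.77 (chr5:17851486-17851986) and was 0.720 kb from a day 6 peak. Pparg, the adipogenic nuclear receptor gene, had 3 members. The highest-scoring was intronic, 2.62 kb from the start (chr6:115424373-115425006), with 8.37 tags per 10 M and no day 6 or day 8 peak within 37.9 kb. A vehicle peak lay 3.37 kb from it. Scd1, a fatty acid desaturase gene, had 1 member, 35.4 kb away, and Cidea, a lipid droplet gene, had 2.

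IGF1/PI3K signaling genes had a member in 21 of 28 cases (75%, 56.6% to 87.3%), beside 46.8% of all genes. A kept PRE was nearest to 22 of the 28, again without a share over all genes. The 95 members of this list gave 1.07 per 100 kb, near the 0.956 of all genes. Irs1, the insulin receptor substrate gene, had 9 members and 2 kept PREs. The highest-scoring Irs1 member was 198 kb downstream of the start (chr1:82093314-82093814), with 6.53 tags per 10 M, 68.9 kb from a day 6 and 15.7 kb from a day 8 peak. Grb14, an inhibitory adaptor of the insulin receptor, had 5 members and 1 kept PRE. Igfbp5, an IGF-binding protein gene, had 1 member and 5 kept PREs, and that member overlapped a male vehicle peak.

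Of muscle structure and calcium handling genes, 20 of 36 sarcomere genes (55.6%) and 18 of 32 calcium handling genes (56.2%) had a member, beside 46.8% of all genes. Sarcomere genes had 53 members and 109 kept PREs, or 1.41 and 2.90 per 100 kb, and calcium handling genes had 48 and 92, or 1.56 and 2.996 per 100 kb. Over all genes these densities were 0.956 and 0.835, and lipid metabolism genes had 1.16 and 1.64. Nebulin (Neb), the giant thin filament protein, went the other way with 9 members and 2 kept PREs, 5.11 members per 100 kb. Its highest-scoring member was exonic (chr2:52256384-52257028), with 8.58 tags per 10 M, 0.249 kb from a day 8 peak. Cmya5, a sarcomeric scaffold gene, had 1 member and 10 kept PREs. The light chain gene Myl1 had 3 members and 2 kept PREs, and the thin filament gene Lmod3 had 2 and 3. Triadin (Trdn), a junctional protein of calcium release, had 4 kept PREs and 6 members, all of them intronic. The calcium channel subunit gene Cacng1 had 4 and 2, the kinase gene Camk2b 4 and 7, and the sarcalumenin gene Srl 2 and 5.

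Myogenic regulators had a member in 16 of 23 genes (69.6%, 49.1% to 84.4%), beside 46.8% of all genes. A kept PRE was nearest to 20 of the 23, also without a share over all genes. The genes of this list had a median of 117 kb of nearest sequence, and members numbered 1.28 per 100 kb against 0.956 over all genes. Mef2c, a muscle transcription factor gene, had 16 members, 6 kept PREs and 11 vehicle-shared peaks. The highest-scoring Mef2c member was intronic (chr13:83566940-83567565) and itself contained 1 MEF2 match. It held 38 H3K27ac tags as counted and 1 input tag, and its fold, taken from H3K27ac tags scaled to the input, was 19.55. It overlapped peaks of male day 4 and day 6. Hdac9, a class IIa deacetylase gene whose product binds MEF2, had 7 members and 0 kept PREs. Its highest-scoring member also held a MEF2 match, with 11.6 tags per 10 M (chr12:34336974-34337792) and no day 6 or day 8 peak within 115 kb. The nearest vehicle peak was 71.4 kb from this member. Hdac4, a related deacetylase gene, showed the opposite proportion with 5 members and 22 kept PREs. Eya1, a transcriptional cofactor gene of muscle development, had 6 members and 0 kept PREs.

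Marker genes of other cell types were also nearest to members. All 5 endothelial markers had a member, 22 members in all, led by Flt1 and Kdr with 7 each, both VEGF receptor genes. Of 5 genes in each list, a member was nearest to 4 fibroblast, 4 satellite cell, 3 immune, 3 Schwann cell, 3 smooth muscle and 1 adipocyte marker, beside 46.8% of all genes. The median of nearest sequence was 215 kb for endothelial and 257 kb for fibroblast markers. Per 100 kb, members numbered from 0.389 at adipocyte to 1.63 at satellite cell markers. The treated lists held more of these marker promoters than the vehicle list, except for adipocyte markers at days 4 and 6. Endothelial marker promoters were in peaks for 2 of 5 genes in the vehicle list and 5 of 5 in each treated list. Fibroblast marker promoters in peaks numbered 1 of 5 in the vehicle list and then 3, 4 and 5 of 5 in the lists of days 4, 6 and 8. The 1 of the vehicle list was Dcn, whose promoter was in no day 4 peak and was in peaks again at days 6 and 8. In the same order of lists, smooth muscle markers gave 0, 1, 5 and 4 of 5, satellite cell markers 0, 3, 2 and 4, and Schwann cell markers 2, 3, 4 and 3. Immune markers gave 0, 1, 1 and 1 of 5, and adipocyte markers 0, 0, 0 and 2. Over all autosomal protein-coding genes, the vehicle list held the promoter of 25.04% and the day 4 list that of 52.0%. For days 6 and 8 the share over all genes was not computed, so the marker counts of these days stand without it. Their lists had 123249 and 81696 peaks, against 38861 in the vehicle list. The part of other cell types in the members was not tested. In bulk myofiber preparations, more cells of a type and more H3K27ac per cell cannot be told apart.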

How the data were processed

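The authors prepared 16 H3K27ac ChIP libraries and 8 input libraries from quadriceps myofibers of 8 groups of mice. Reads were trimmed with homerTools and aligned to mm10 with Bowtie2. HOMER findPeaks was run in histone mode with the input as background and a minimum 2-fold enrichment. The submitters' processing notes name Bowtie2 2.2.6, TopHat2 2.1.0 and HOMER. The authors deposited 1 peak list per group. The way in which both libraries entered a list is not given in the sources used here, so no p-value was computed, and intervals (Wilson for shares, Newcombe for differences, 95%) cover counting error only. In the deposited lists, the normalized tag count is a signal per 10 M tags, the findPeaks score is a tag number not scaled for depth, and the fold over input is a ratio, all used as given. The p-values that the authors deposited for single peaks against input were not used. Depth was recovered from the tag counts and ranged from 7.52 to 50.5 M tags.

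Here, peaks were compared by overlaps of 1 bp or more. Places, distances and sequence came from RefSeq GRCm38 (mm10), with 43783 curated transcripts and 20021 autosomal protein-coding genes. Grid windows numbered 119797, of which 104400 were outside female peaks. The 4 classes of findPeaks score were set at the quartiles of the PREs. Members, gene lists and the rule for named genes were chosen with earlier results of these data known. Named genes were those nearest to the 12 members with the highest score and under 50% repeat sequence, the 8 genes with the most members, up to 4 genes per list by highest member score, and those of up to 5 members in at least 3 male lists. Alternatives were a cover of 50%, a distance of 1 kb, lists of equal length, a fold of at least 4, repeats not masked, and whole peaks searched. Code was tested on simulated data and run with Python 3.11.15, NumPy 2.4.6, pandas 2.3.3 and SciPy 1.17.1.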

Additional observations from a re-analysis of the deposited data

How the results depend on the processing

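No paired analysis was possible because the deposited files hold a single peak list per group, and no library could be left out for the same reason. Of 42 alternative values of 7 results, 19 stayed within the interval of the reported value (1.5 times for counts), 22 moved and 1 turned. With lists cut to equal length by score, the members numbered 14022, 1.95% were at promoters and 18.9% overlapped a male peak, and kept minus day 4–only was 15.4 points for promoters and 0.165 points (−0.109 to 0.475) for MEF2. With at least 50% of a peak to be covered, promoters held 0.908% and 10.8% overlapped a male peak, and the differences were 15.8 points for promoters, 64.5 for male overlap and −2.97 for GR. With peaks within 1 kb counted as present, the shares were 0.651% and 7.12% and the differences 9.20 and 46.7 points. With a fold of at least 4 the promoter difference was 13.0 points. Unmasked repeats gave a GR difference of −3.35 points. Whole peaks turned it to 7.31 points and gave 1.71 points for MEF2, where the peaks searched differ in width. Chosen after seeing the data, peaks of 500 bp alone gave 7.76% male overlap and differences of 5.17 (promoters), 32.3 (male overlap) and 0.0183 points (MEF2), and the central 500 bp a male overlap difference of 49.9 points. The cause of the other changes was not tested. Members had a median of 28 tags at the greatest depth of the female lists, and the part of depth in their absence from other lists was not tested.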

Other observations

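Chromosome X was left out by the rule. Of its 1244 female day 4 peaks, 672 were in none of the vehicle, day 6 and day 8 lists, or 54.0% (51.2% to 56.8%), while the autosomes ranged from 27.7% on chromosome 11 to 44.2% on chromosome 13. Of 8 day 4 peaks on other sequences, 3 met the same condition.

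The Mb with the most members were on chromosome 14 (21000001 to 22000000) and chromosome 16 (17000001 to 18000000), with 28 each, where 24 and 20 kept PREs also lay. In the first, 12 of the 28 were nearest to Kat6b, a histone acetyltransferase gene. On chromosome 2 (52000001 to 53000000) 9 of 27 members were nearest to Neb.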
